A study of Homo sapiens with 12 samples.

Results

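The genes described here encode laminins and integrins. They were taken from the table over all 12 libraries as protein-coding genes whose symbol is LAMA, LAMB or LAMC with a digit, ITGA with a number or with V, E, L, M or X, or ITGB with a digit. Of 15601 genes in that table, 29 met this rule, namely 10 laminin chains and 19 integrin subunits (13 alpha and 6 beta). A further 7 genes of these families, ITGA8, ITGA9, ITGAL, ITGB7, ITGB8, LAMA1 and LAMB4, were not analysed here.

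Laminins are trimers of an alpha, a beta and a gamma chain that form the sheet-like network of basement membranes, and the alpha chain carries the main binding sites for cells. Integrins are surface receptors made of an alpha and a beta subunit, and the pair decides whether a cell binds laminin, collagen, fibronectin or other matrix proteins. In the liver, laminin is sparse along the normal sinusoid and accumulates around tumors, and hepatoma cells use integrins to attach to it and spread.

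SNU449 is a hepatocellular carcinoma cell line with mesenchymal-like features, and SNU449-Axl- cells derive from it and lack the receptor tyrosine kinase Axl. Each background was studied as untreated control cells and as cells resistant to the kinase inhibitor regorafenib (Rego), which had been raised from 50% of the IC50 in steps of 50% every 2 weeks to 2 times the IC50. Each of the 4 groups has 3 libraries of 3' end tags, which are technical triplicates of 1 cell population, so that p-values measure the spread between libraries and not between independently selected populations. The resistant cells were kept on Rego, so that selection and the presence of the drug cannot be told apart.

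AXL itself had library values of 715 to 941 in SNU449 control and 815 to 1271 in SNU449 Rego-resistant cells, against 33 to 53 and 38 to 52 in the corresponding SNU449-Axl- groups. A library value is 2 raised to the variance-stabilized, batch-corrected level, rounded. Such values flatten out for weak genes: ITGA11, with a mean normalized count of 0 in SNU449 control cells, had values of 21, 22 and 21 there. Mean normalized counts per group were therefore solved from the authors' table means, and they are estimates with no error or test of their own. All 7 mesenchymal-like markers looked for were in the table, led by VIM with a mean normalized count of 18900, whereas 8 of 12 hepatocyte markers, ALB and HNF4A among them, were not listed. Of 7 epithelial markers KRT18, KRT8 and OCLN were listed, with mean normalized counts of 1090, 267 and 13, whereas EPCAM, CDH1, KRT19 and CLDN4 were not. Of 9 leukocyte markers 3 were listed, and no endothelial or platelet marker was. In bulk RNA, fewer cells with a transcript and less of it per cell cannot be told apart.

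In Rego-resistant SNU449 cells 8 of 29 members passed the test, where 7.81% of all genes tested passed. Of these, 5 were higher and 3 lower than in control cells, against 4.31% and 3.5% of all genes. In SNU449-Axl- cells 9 of 29 passed upon resistance, where 4.35% of all genes did, 4 of them higher and 5 lower, against 2.54% and 1.81% of all genes. In control cells 3 of 29 members, or 10.3%, differed between SNU449-Axl- and SNU449 cells, where 7.45% of all genes passed, a nearby share. All 3 were higher and none lower without Axl, against 4.03% and 3.43% of all genes. Among Rego-resistant cells 3 members, again 10.3%, differed, where 4.37% of all genes passed. Of these, 1 was higher and 2 lower without Axl, against 2.44% and 1.93% of all genes. Each background was 1 cell population, so that lack of Axl and other differences between the populations cannot be told apart. The signed log2 difference upon resistance differed between the backgrounds for 4 members, where 5.87% of all genes passed. For all 4 it was more positive, or less negative, in SNU449 cells, as for 2.95% of all genes, and it was the reverse for 2.92%. The counts for the Rego effect in SNU449 and for the Axl effect in Rego-resistant cells include ITGA11. This gene passed the authors' filter on low counts only through SNU449 Rego-resistant cells, so that its difference was built in. ITGA11 also enters the total of 13 members, the medians over members and the counts of groups without overlap for the same comparisons, all given below. With the libraries centred on the spike-in RNAs, the members called as higher and lower were 5 and 2 upon resistance in SNU449 and 5 and 4 in SNU449-Axl- cells, and without Axl 5 and 0 in control and 6 and 0 in Rego-resistant cells. A total of 13 members passed in at least 1 comparison and 16 in none. The members were chosen with earlier results of these data known, so that their shares beside those of all genes are a description. The median absolute log2 difference upon resistance was 0.371 over the members and 0.22 over all genes in SNU449 cells, and 0.366 and 0.207 in SNU449-Axl- cells. The libraries of both groups did not overlap for 6 members that were higher and 7 that were lower upon resistance in SNU449 cells, against 14.6% and 13.3% of all genes and 27.9% in both directions. In SNU449-Axl- cells these were 7 and 6 members, against 15% and 14.1% and in sum 29.1% of all genes. Without Axl they were 5 and 4 members in control cells, against 14.5%, 13.4% and 27.9% of all genes, and 6 and 4 in resistant cells, against 14.8%, 13.2% and 28%. Tests were made with limma on log2(value + 1), and p-values were adjusted by Benjamini-Hochberg over all genes.

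The promoters of 4 members are shown, because these genes changed in the same direction upon resistance in both backgrounds: LAMA4 and ITGA5 fell, LAMA5 and ITGA6 rose. ITGB3, the other member that fell in both, is named only. Each sequence runs 5' to 3' on the gene's strand from 250 bases before to 50 bases after the RefSeq start site in GRCh38.p14. Capitals mark the motifs searched on both strands, namely the TEAD core GGAATG, the AP-1 site TGANTCA, the E-box CACCTG, the GC box GGGCGG and the TATA box TATAAA. They do not overlap each other in these windows.
LAMA4 (chr6:112254518-112254817, minus strand): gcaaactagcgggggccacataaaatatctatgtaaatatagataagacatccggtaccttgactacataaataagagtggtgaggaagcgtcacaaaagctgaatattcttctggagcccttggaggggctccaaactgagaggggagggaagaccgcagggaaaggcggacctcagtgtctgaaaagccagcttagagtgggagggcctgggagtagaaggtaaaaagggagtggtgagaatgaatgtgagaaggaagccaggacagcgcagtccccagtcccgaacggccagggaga
LAMA5 (chr20:62367263-62367562, minus strand): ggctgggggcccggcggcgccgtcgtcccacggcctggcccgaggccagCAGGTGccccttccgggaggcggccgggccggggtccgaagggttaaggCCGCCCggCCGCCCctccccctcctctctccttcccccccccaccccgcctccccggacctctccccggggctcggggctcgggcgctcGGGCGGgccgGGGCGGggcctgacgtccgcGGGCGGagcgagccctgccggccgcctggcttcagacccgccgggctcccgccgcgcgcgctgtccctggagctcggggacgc
ITGA5 (chr12:54419217-54419516, minus strand): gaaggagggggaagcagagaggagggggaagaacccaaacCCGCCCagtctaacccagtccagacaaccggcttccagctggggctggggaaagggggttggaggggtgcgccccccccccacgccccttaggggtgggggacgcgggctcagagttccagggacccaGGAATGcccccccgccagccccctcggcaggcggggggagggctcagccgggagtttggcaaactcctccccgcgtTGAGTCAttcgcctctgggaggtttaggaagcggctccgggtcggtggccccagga
ITGA6 (chr2:172427086-172427385, plus strand, 1 of 2 entries): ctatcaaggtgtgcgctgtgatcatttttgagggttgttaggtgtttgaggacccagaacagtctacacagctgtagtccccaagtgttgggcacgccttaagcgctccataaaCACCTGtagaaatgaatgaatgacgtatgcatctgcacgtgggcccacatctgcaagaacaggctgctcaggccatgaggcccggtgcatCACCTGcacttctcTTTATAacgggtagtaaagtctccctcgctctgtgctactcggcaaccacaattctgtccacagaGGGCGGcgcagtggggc

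The LAMA4 window held none of the 5 motifs at a GC content of 51.3%, and its start lies 372 bases from the GENCODE start. The LAMA5 window held 5 GC boxes and 1 E-box at a GC content of 82.7%. The ITGA5 window held 1 TEAD core, 1 AP-1 site and 1 GC box, and the ITGA6 window shown 2 E-boxes, 1 GC box and 1 TATA box. The other ITGA6 entry (chr2:172427336-172427635) held 3 GC boxes and none of the other motifs. Among all 35116 promoters of this length, 14% held the TEAD core, 7.71% the AP-1 site, 20.6% the E-box, 45.0% the GC box and 11.5% the TATA box. Among the 28 promoter entries found for members, 4, 3, 7, 17 and 2 held them. Some members, such as ITGB5 and LAMB3, had several entries, and others, such as ITGB3 and ITGB4, had none. A match describes letters in a window and does not show binding.

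Among the laminin alpha chains, LAMA4 was the most abundant transcript in both control groups and LAMA5 in both Rego-resistant groups. LAMA4 (chr6:112107931-112254939), the alpha chain typical of mesenchymal and endothelial cells, had library values of 409, 483 and 666 in SNU449 control cells and of 38, 33 and 21 in Rego-resistant cells. In SNU449-Axl- cells the values were 329, 332 and 309 in control and 24, 23 and 28 in resistant cells. All resistant libraries lay far below all control libraries. LAMA4 fell by 4.05 on the log2 scale in SNU449 (SE 0.233, limma adjusted p = 2.42e-09) and fell by 3.65 in SNU449-Axl- cells (adjusted p = 4.36e-08). Its solved mean normalized count went from 505 to 5.59 in SNU449 cells, which is 90.3-fold lower, and from 319 to 1.49 in SNU449-Axl- cells.

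LAMA5 (chr20:62307955-62367312), the alpha chain of most adult epithelial basement membranes, showed the opposite course. Its library values were 83, 65 and 127 in SNU449 control and 285, 322 and 322 in Rego-resistant cells. In SNU449-Axl- cells they were 152, 166 and 137 in control and 332, 341 and 213 in resistant cells. LAMA5 rose by 1.80 on the log2 scale in SNU449 (SE 0.242, limma adjusted p = 0.000112) and by 0.93 in SNU449-Axl- cells (adjusted p = 0.0352). The groups did not overlap in either background, but the second call was lost when any of 5 of the 12 libraries was left out. The protein-coding gene ADRM1 on the opposite strand overlaps the last 2000 bases of LAMA5 in the annotation. Whether counting used the strand is unknown, so that reads there are not certain to be those of LAMA5.

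Counts of 3' tags are not divided by transcript length, since each transcript gives tags at its 3' end only. On this scale LAMA4 made up 81.5% of the alpha-chain count in SNU449 control cells and 1.75% in Rego-resistant cells, while LAMA5 went from 12.0% to 93.5%. In SNU449-Axl- cells LAMA4 went from 62.7% to 0.403% and LAMA5 from 27.5% to 79.0%. The total of the 4 chains was 619.7 and 319.9 in SNU449 and 508.5 and 369.5 in SNU449-Axl- cells.

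Markers of cell type also differed between these groups. Of the 7 mesenchymal-like markers, ZEB2 fell by 1.31 and FN1 fell by 2.24 on the log2 scale upon resistance in SNU449 cells, while in SNU449-Axl- cells SNAI2 fell by 0.83 and FN1 rose by 2.47. Their summed library values were 17512 to 24971 and 15378 to 28419 in SNU449 control and resistant cells, and 19376 to 26358 and 17861 to 20986 in the SNU449-Axl- groups. None of the 3 listed epithelial markers passed upon resistance, with sums of 885 to 1364 and 954 to 1562 in SNU449 and 1177 to 1641 and 1546 to 2162 in SNU449-Axl- cells, and KRT8 was higher without Axl by 0.79 in control and 1.58 in resistant cells. The 4 listed hepatocyte markers summed to 132 to 178 and 162 to 184 in SNU449 and to 163 to 217 and 333 to 702 in SNU449-Axl- control and resistant cells, where FGB rose by 2.49. Their part in the laminin results was not tested.

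**Figure D1:**
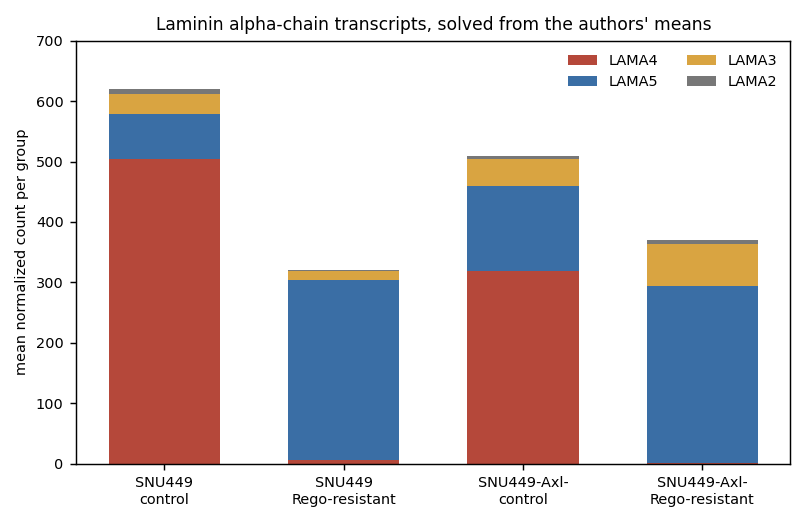
Stacked bars give the solved mean normalized count (vertical axis) of LAMA4, LAMA5, LAMA3 and LAMA2 in each of the 4 groups, with no error since only table means underlie them. LAMA4 fills most of both control bars, and LAMA5 most of both Rego-resistant bars.

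LAMA3, the alpha chain of the laminin that anchors epidermis, separated the backgrounds among resistant cells. Its values were 47, 44 and 35 in SNU449 Rego-resistant and 89, 100 and 84 in SNU449-Axl- Rego-resistant cells, a log2 difference of 1.10 (limma adjusted p = 0.00558). The groups did not overlap. It made up 4.44% of the alpha-chain count in the former and 19.2% in the latter. The call was lost without replicate 2 of the SNU449-Axl- Rego-resistant cells (adjusted p = 0.0598). LAMA2, the muscle alpha chain, had library values between 22 and 40 and passed in no comparison.

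Of the beta chains only LAMB3, the partner of LAMA3 in epidermal laminin, passed a test. Its values were 54, 57 and 58 in SNU449 control, 90, 60 and 61 in SNU449 Rego-resistant, 99, 125 and 129 in SNU449-Axl- control and 49, 55 and 52 in SNU449-Axl- Rego-resistant cells. It was thus highest in SNU449-Axl- control cells, whose libraries lay above all others. LAMB3 was higher by 1.04 on the log2 scale in control cells without Axl (limma adjusted p = 0.00381) and fell by 1.15 upon resistance in that background (adjusted p = 0.00287). LAMB1, the most abundant beta chain with values of 471 to 933, and LAMB2, with 67 to 129, passed in no comparison.

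LAMC1, the gamma chain of most laminins, had values of 404 to 789. In SNU449 cells they were 689, 789 and 551 in control and 434, 404 and 593 in resistant cells, which overlap, and no comparison passed. LAMC3 stayed between 19 and 34, near the level of genes without counts, and passed in no comparison.

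**Figure D2:**
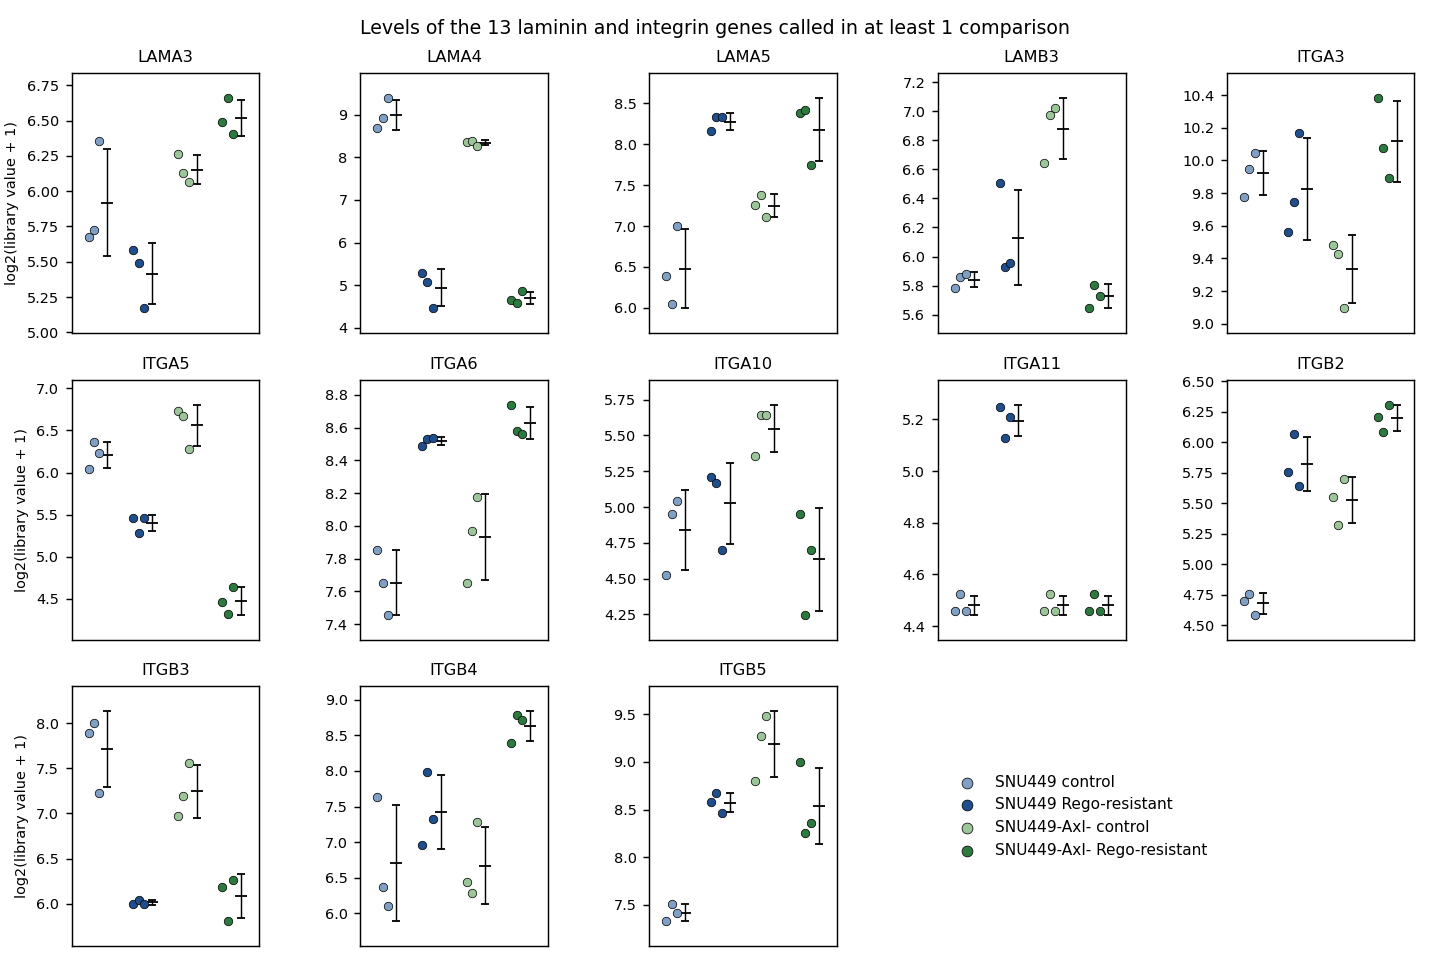
Each panel shows 1 of the 13 members called in at least 1 comparison, with log2(library value + 1) on the vertical axis, a point for each of 3 libraries per group and the mean with SD beside them. LAMA4 and ITGB3 lie lower and LAMA5 and ITGA6 higher in both Rego-resistant groups than in their controls.

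Among the subunits of laminin receptors, ITGA6 rose upon resistance in both backgrounds. ITGA6 (chr2:172427354-172506459), which pairs with ITGB1 or ITGB4, had values of 230, 200 and 175 in SNU449 control and 358, 368 and 370 in Rego-resistant cells. In SNU449-Axl- cells they were 200, 249 and 288 in control and 426, 382 and 376 in resistant cells. It rose by 0.86 (SE 0.191, limma adjusted p = 0.00806) and by 0.70 (adjusted p = 0.0458) on the log2 scale. The groups did not overlap, but the second call was lost for 8 of 12 libraries left out.

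ITGB4, the subunit of hemidesmosomes that pairs with ITGA6 alone, had values of 86, 77 and 155 in SNU449-Axl- control and 336, 439 and 419 in SNU449-Axl- Rego-resistant cells. It rose by 1.96 on the log2 scale (SE 0.35, limma adjusted p = 0.00309). In SNU449 cells the values of 198, 82 and 68 and of 123, 253 and 159 overlapped. Whether the effect differed between backgrounds did not pass the test. The protein-coding gene GALK1 on the opposite strand overlaps the last 2000 bases of ITGB4, and whether counting used the strand is unknown.

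ITGA3, another laminin-binding alpha subunit, had values of 714, 689 and 546 in SNU449-Axl- control and 1332, 1079 and 950 in resistant cells, and rose by 0.78 (limma adjusted p = 0.0385). In SNU449 cells the values of 877, 987 and 1054 and of 754, 856 and 1149 overlapped. The call in SNU449-Axl- cells was lost for 7 of 12 libraries left out. ITGB1, the common beta partner and the most abundant integrin here, had values of 908 to 2373 and passed in no comparison. ITGA7 lay between 19 and 33 and passed in none.

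Among receptors of fibronectin, vitronectin and related proteins, ITGA5 and ITGB3 fell in both backgrounds. ITGA5 (chr12:54395261-54419266), the alpha subunit of the main fibronectin receptor, had values of 65, 81 and 74 in SNU449 control and 43, 38 and 43 in Rego-resistant cells. In SNU449-Axl- cells they were 105, 101 and 77 in control and 21, 19 and 24 in resistant cells, where the solved mean normalized count was 0.0169 against 74.4 in control. It fell by 0.81 in SNU449 (limma adjusted p = 0.0139) and by 2.09 in SNU449-Axl- cells (adjusted p = 5.98e-06). The former call was lost without replicate 2 of the SNU449 control or of the SNU449 Rego-resistant cells. Among resistant cells ITGA5 was lower without Axl by a log2 difference of -0.93 (limma adjusted p = 0.00976), a call lost when all libraries were centred on the spike-in RNAs (adjusted p = 0.082).

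ITGB3, the beta subunit of a vitronectin receptor, had values of 237, 256 and 149 in SNU449 control and 63, 65 and 63 in Rego-resistant cells. In SNU449-Axl- cells they were 125, 145 and 188 in control and 72, 55 and 76 in resistant cells. It fell by 1.70 (SE 0.231, limma adjusted p = 0.000131) and by 1.16 (adjusted p = 0.00715). The second call was lost without replicate 3 of the SNU449-Axl- control or replicate 2 of the SNU449-Axl- Rego-resistant cells (adjusted p of up to 0.088). All resistant libraries lay below all control libraries. Another protein-coding gene on the same strand shares the 3' end of ITGB3 in the annotation, so that reads there are not certain to be its own.

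ITGB5, another vitronectin receptor subunit, was lowest in SNU449 control cells. Its values were 160, 181 and 169 there, 380, 406 and 353 in SNU449 Rego-resistant, 446, 617 and 713 in SNU449-Axl- control and 510, 305 and 327 in SNU449-Axl- Rego-resistant cells. It rose by 1.15 upon resistance in SNU449 cells (limma adjusted p = 0.00295) and was higher by 1.77 without Axl in control cells (adjusted p = 7.49e-05). ITGAV, the alpha partner of both, had values of 343 to 703, and ITGB6 of 31 to 73, and neither passed in any comparison.

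**Figure D3:**
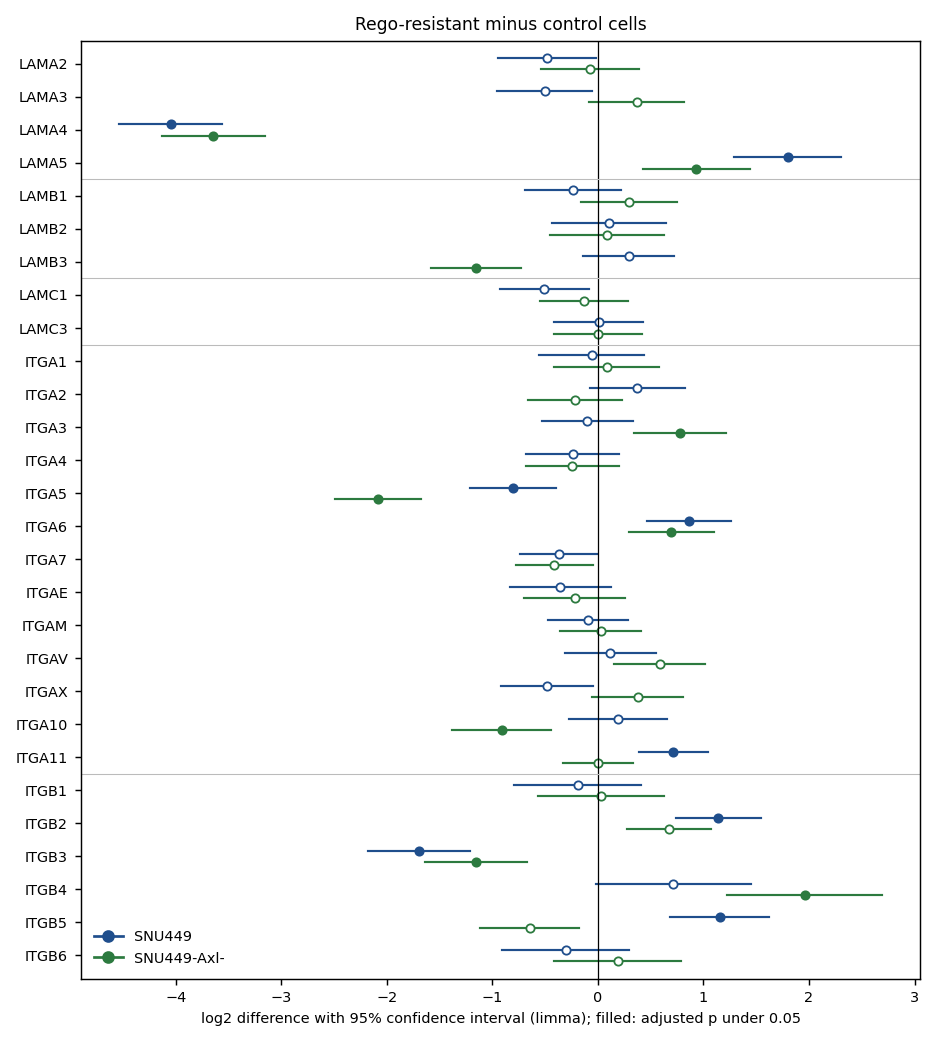
The log2 difference between Rego-resistant and control cells (horizontal axis) with its 95% confidence interval is drawn for 28 of the 29 members in SNU449 and SNU449-Axl- cells, filled where the adjusted p is under 0.05. LAMA4 lies farthest to the left in both backgrounds, and the points for ITGB5 and LAMB3 lie on opposite sides of 0.

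Of the collagen receptor subunits, ITGA1 with values of 105 to 219 and ITGA2 with 106 to 178 passed in no comparison. ITGA10, found mainly in cartilage, had values of 40, 49 and 49 in SNU449-Axl- control and 30, 18 and 25 in resistant cells. It fell by 0.91 (limma adjusted p = 0.0237), a call lost for 4 of 12 libraries left out. Its solved mean normalized counts were 18.9 and 1.19 in these groups, and 2.99 and 6.77 in SNU449 control and Rego-resistant cells. Apart from SNU449-Axl- control cells, the groups thus lay near the level where values flatten out. ITGA11, a receptor of fibroblasts, had values of 37, 34 and 36 in SNU449 Rego-resistant cells and of 21 or 22 in every other library. Its solved mean normalized count there was 7.8. Since ITGA11 passed the filter on low counts through this group alone, its values are a description and no p-value is given.

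Of the subunits known from leukocytes, ITGB2 passed. Its values were 25, 26 and 23 in SNU449 control, 53, 66 and 49 in SNU449 Rego-resistant, 46, 39 and 51 in SNU449-Axl- control and 73, 67 and 78 in SNU449-Axl- Rego-resistant cells. SNU449 control cells lay below all other groups. The solved mean normalized counts were 1.55, 29.2, 17.1 and 48.3 in these groups. The SNU449 control values thus lay near the lowest level, where the scale flattens out and log2 differences are compressed. ITGB2 rose by 1.14 upon resistance in SNU449 cells (limma adjusted p = 0.000835) and was higher by 0.85 without Axl in control cells (adjusted p = 0.00963). In SNU449-Axl- cells the difference of 0.67 upon resistance did not pass (adjusted p = 0.0516). The summed library values of the 3 listed leukocyte markers were 71 to 85, 78 to 99, 89 to 103 and 78 to 91 in these groups, and their mean normalized counts summed to 12.6. ITGAM and ITGAX, with values of 20 to 38, ITGAE, with 102 to 209, and ITGA4, a receptor subunit for VCAM1 and fibronectin with values of 46 to 78, passed in no comparison.

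The Rego effect differed between the backgrounds for ITGB5, LAMB3, ITGA5 and ITGA10. Set against the SNU449-Axl- background, the log2 difference upon resistance in SNU449 cells was larger by 1.80 for ITGB5 (SE 0.315, limma adjusted p = 0.00207) and by 1.45 for LAMB3 (SE 0.288, adjusted p = 0.00547). For ITGA5 it was 1.28 (SE 0.275, adjusted p = 0.00907), since the gene fell less in SNU449 cells, and for ITGA10 it was 1.10 (SE 0.313, adjusted p = 0.0443). The call for ITGA10 was lost for 8 of 12 libraries left out, with an adjusted p of up to 0.165. ITGA10 was weak, with a mean normalized count of 7.4 over all libraries. LAMA4, LAMA5, ITGA6 and ITGB3 did not pass this test. For LAMA4 both resistant groups lay near the lowest level, with values of 21 to 38. The test could therefore hardly show a difference in the size of its fall.

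**Figure D4:**
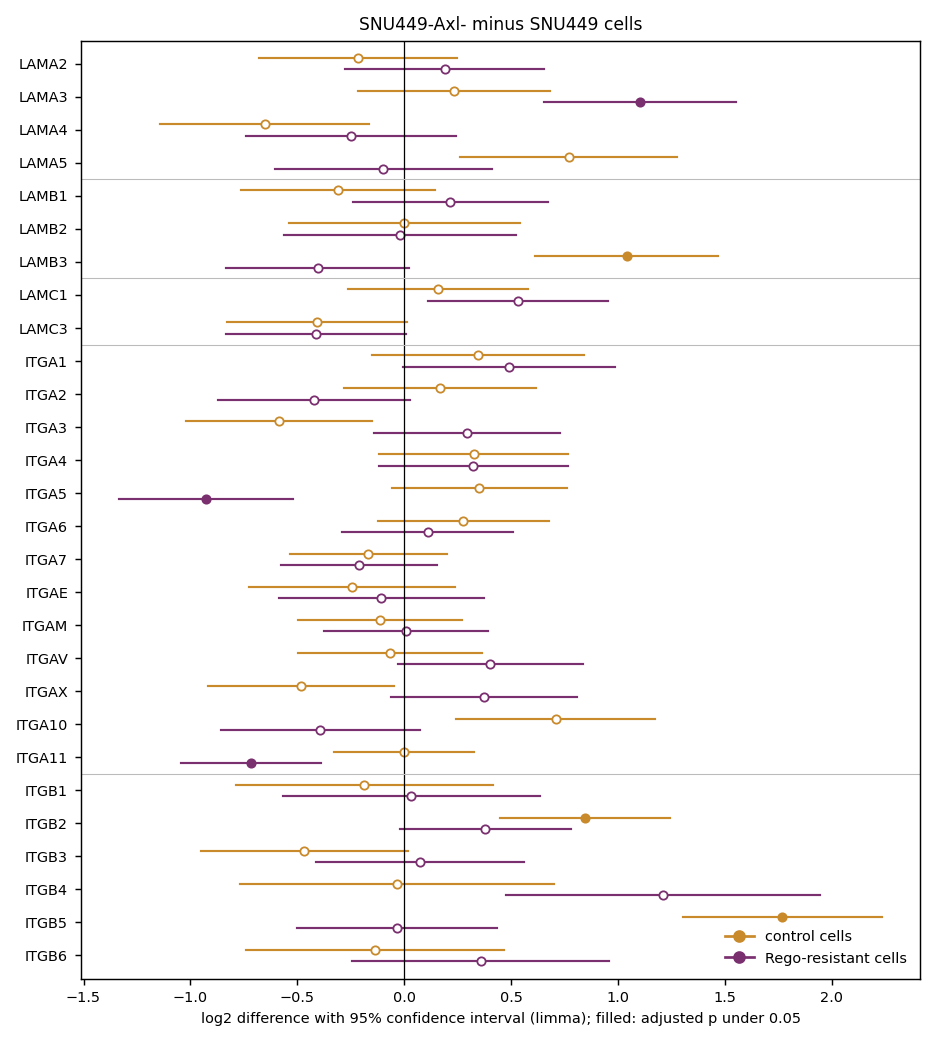
The log2 difference between SNU449-Axl- and SNU449 cells (horizontal axis) with its 95% confidence interval is drawn for 28 of the 29 members in control and in Rego-resistant cells, filled where the adjusted p is under 0.05. ITGB5, LAMB3 and ITGB2 are filled in control cells only, and LAMA3, ITGA5 and ITGA11 in resistant cells only. The difference of ITGA11 was built in by the filter on low counts.

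Genes that act together with the members were counted from lists, beside 7.81% of all genes called for the Rego effect in SNU449 cells, 4.35% in SNU449-Axl- cells and 5.87% for the difference between backgrounds. The lists were chosen with earlier results of these data known, so that a high share is not a result about a list. Of 33 integrin ligands tested, 3 rose and 5 fell upon resistance in SNU449 cells, and 7 rose and 4 fell in SNU449-Axl- cells, which is 24.2% and 33.3% of the list. FN1, which encodes fibronectin, fell by 2.24 on the log2 scale in the former (limma adjusted p = 0.000686) and rose by 2.47 in the latter (adjusted p = 0.000544). VCAM1, a ligand of ITGA4 receptors, fell by 4.08 and rose by 1.78. CCN2 and CCN1 had the largest rises in SNU449 cells, by 1.84 and 0.97, and SPP1, which encodes osteopontin, and FGB had those in SNU449-Axl- cells, by 2.82 and 2.49. COL1A1 fell by 2.79 and MFGE8 fell by 1.37, the largest falls there. The difference between backgrounds passed for 13 ligands, with 6 larger in SNU449 cells, led by COL1A1 at 4.76 and CCN2 at 2.24, and 7 smaller, led by VCAM1 at -5.85 and FN1 at -4.71.

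Of 20 basement membrane partners tested, 3 rose and 1 fell in SNU449 and 4 rose and none fell in SNU449-Axl- cells, 20% of the list in each. COL4A4 and FRAS1 rose by 1.38 and 1.0 and HMCN1 fell by 1.50 in SNU449 cells, and TINAGL1 and COL18A1 rose by 1.87 and 1.59 in SNU449-Axl- cells. Of 13 other laminin receptors, 3 rose and 3 fell in SNU449 and 2 rose in SNU449-Axl- cells, which is 46.2% and 15.4%. SDC2, a syndecan, rose by 3.37 and 2.16, and LGALS3, a galectin, by 1.03 and 1.41, while GPC1 fell by 1.22 and SDC4 by 1.05 in SNU449 cells. Of 59 adhesion complex genes, 5 rose in SNU449, and 1 rose and 2 fell in SNU449-Axl- cells, which is 8.47% and 5.08% and close to the shares of all genes. NEDD9 and TLN2 rose by 1.62 and 1.57 in SNU449 cells, and VASP and TLN2 fell by 1.13 and 0.80 and SRC rose by 1.06 in SNU449-Axl- cells. The difference between backgrounds passed for 2 basement membrane partners, NPNT at -1.51 and TINAGL1 at -1.36, for GPC1 at -1.67 among the other laminin receptors and for 6 adhesion complex genes, with TLN2 at 2.37, NEDD9 at 2.14 and SRC at -1.39. NPNT, which is also counted as a ligand, had a mean normalized count of 10.2 over all libraries. Whether it passed the filter on low counts through 1 group alone was not examined. The median log2 difference upon resistance in SNU449 and SNU449-Axl- cells was 0.158 and -0.035 over the ligands, 0.35 and 0.159 over the basement membrane partners, 0.31 and 0.045 over the other laminin receptors and 0.229 and -0.164 over the adhesion complex, against 0 and 0.007 over all genes.

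Beside 7.45% of all genes in control and 4.37% in Rego-resistant cells, the share called for the Axl effect was 42.4% and 39.4% of the ligands, 15% and 25% of the basement membrane partners, 15.4% and 7.69% of the other laminin receptors and 10.2% and 5.08% of the adhesion complex. Since the lists were chosen with earlier results of these data known, these shares are a description only. Without Axl, 9 ligands were higher and 5 lower in control cells, and 10 higher and 3 lower in resistant cells. COL1A1 and COL6A1 were highest among the former, by 3.14 and 1.87, with VCAM1 and FN1 lower, by log2 differences of -4.29 and -2.25. In resistant cells FGB and SPP1 were higher by 3.44 and 2.63, and COL1A2 and CCN2 lower, by -1.32 and -1.17. Of the basement membrane partners, 2 were higher and 1 lower in control cells and 4 higher and 1 lower in resistant cells. COL4A4 and NTN4 led the former by 1.43 and 1.15 against HMCN1 at -1.20, and TINAGL1 and NPNT the latter by 2.01 and 1.40 against COL4A5 at -0.78. Of the other laminin receptors, SDC2 was higher by 1.34 and GPC1 lower, at -1.16, in control cells, and SDC1 was lower, at -0.97, in resistant cells. Of the adhesion complex, 4 were higher and 2 lower in control cells, led by NEDD9 at 1.92 and TLN2 at 1.73 against BCAR1 at -0.86 and KANK1 at -0.67, and 3 were lower in resistant cells, among them VASP at -1.33 and TES at -0.89. Some called genes were weak, with mean normalized counts of 10.2 for NPNT, 9.86 for FBN1 and 4.41 for FGA. JAM3 and KANK1 had 4.14 and 2.72. Whether such genes passed the filter on low counts through 1 group alone was not examined.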

How the data were processed

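RNA of 12 libraries, 3 for each of 4 groups, was sequenced as 3' end tags (QuantSeq forward). Reads were trimmed by the authors with cutadapt 4.0 and mapped with STAR 2.5.3a on GRCh38 together with spike-in RNAs. Gene counts followed GENCODE release 40, genes with few counts were dropped, and the DESeq2 model of the authors included preparation dates. Whether counting used the strand is not given in the sources used here. In GENCODE release 44 a gene on the opposite strand overlaps the last 2000 bases of some members, among them ITGA5, ITGA6, ITGB4 and LAMA5.

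Of the deposited tables, 8 were used, 6 for pairs of groups and 2 over all libraries. Library values in the deposited tables are scores: the authors variance-stabilized the counts, took out the preparation effect and, as read here, converted the log2 level back to a rounded linear value. Since no library totals were at hand, sequencing depth is unknown. The deposited signal of a gene is the authors' mean normalized count over the libraries of a table. The authors' columns of log2 fold changes and p-values hold their own comparisons and were not used.

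Values of 15601 genes, without 32 spike-in RNAs, entered 1 linear model on the scale log2(value + 1), with a term for the group and the replicate number as a block (limma 3.58.1, R 4.3.3, moderated with a mean trend). The call threshold was 0.05 for the p-value adjusted after Benjamini-Hochberg. A filter at a mean value of 5 was set, but it removed no gene, since the lowest library value was 12. Preparation dates of single libraries are not named in the labels or tables. The replicate number was assumed to stand for them, since an effect that follows it appears to have been removed from the values: the mean over libraries of a number deviated by a median of 0.00124 to 0.00127, against 0.122 for a single library, and deviations of same-numbered libraries correlated between -0.485 and -0.091. Data were simulated for the Rego effect in SNU449 cells with 200 of 15601 genes changed by a log2 value of 1. The block recovered 108 with 4 false calls, and the fit without it 145 with 33. The 200 were drawn from genes above a set mean level, so that the recovery does not describe weak genes such as ITGA10 and ITGA11.

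For each group, mean normalized counts were derived from the means of 6 pair tables and 1 table over all libraries. The table means refitted from them differed from the authors' by a median of 0.00831% over the 8180 genes that set the table scales. This is a residual of the fit and not an error of the counts per group. In simulated tables the median absolute log2 error of a fold was 0.07 over 6541 genes. Genes with a low mean over all libraries were left out of both, so that neither value covers weak genes such as ITGA11. Counts were obtained for 26 of 29 members. A fold was given only where both groups had at least 3. All members but 1, which is not reported here, were named, and from each list of partner genes the 2 largest rises and falls among called genes. The members and lists were chosen with earlier results of these data known. Promoters came from RefSeq (GRCh38.p14), and 28 entries matched members, with several for some members and none for others. Alternatives were other scalings, pseudocounts and filters, no block, no trend, the other tables and each library left out. The alternative without a filter is the same as the main fit.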

Additional observations from a re-analysis of the deposited data

Results flagged for a closer look

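For 4 members the Rego effect differed between SNU449 and SNU449-Axl- cells by the interaction term in limma. The log2 difference was larger in SNU449 cells by 1.80 for ITGB5, by 1.45 for LAMB3, by 1.28 for ITGA5 and by 1.10 for ITGA10. ITGB5 rose upon resistance in SNU449 cells, and LAMB3 and ITGA10 fell in SNU449-Axl- cells, whereas ITGA5 fell in both backgrounds. The calls for ITGB5, LAMB3 and ITGA5 held under each of the 21 alternatives run for them, with adjusted p of at most 0.013, 0.0257 and 0.0432. That for ITGA10 held under 11 of 20, with an adjusted p of up to 0.165, and was lost for 8 of 12 libraries left out. These alternatives include the fit without a filter, which is the same as the main fit.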

How the results depend on the processing

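No call of a member changed its direction under any alternative. Without the replicate block, the genes called were 2175 and 1552 for the Rego effect in SNU449 and SNU449-Axl- cells, 2182 and 1503 for the Axl effect in control and Rego-resistant cells and 1826 for the difference between backgrounds, against 1219, 678, 1163, 682 and 916 with it. The members called were then 7 for the Axl effect in control cells and 8 for the difference between backgrounds, against 3 and 4.

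Centring on the spike-in RNAs moved the median log2 difference of all genes most for the Axl effect in Rego-resistant cells, from 0.014 to 0.306. There 1799 genes, 1731 higher and 68 lower against 381 and 301, and 6 members were called, and 5 members for the Axl effect in control cells. The genes higher and lower were 612 and 380 against 673 and 546 for the Rego effect in SNU449, 585 and 110 against 396 and 282 in SNU449-Axl-, 1257 and 231 against 628 and 535 for the Axl effect in control cells, and 265 and 460 against 461 and 455 for the difference between backgrounds. In that setting ITGA5 and ITGA11 were no longer called for the Axl effect in Rego-resistant cells (for ITGA5, adjusted p = 0.082), ITGA5 for the Rego effect in SNU449 (0.0583) and ITGA10 for that in SNU449-Axl- cells (0.0742). In the separate tables of each pair of groups, 603 genes were called for the Rego effect in SNU449, 603 for the Axl effect in control and 1160 for that in Rego-resistant cells. There ITGA5 and ITGA11 in SNU449 and ITGA6 in SNU449-Axl- cells were not called for the Rego effect (adjusted p = 0.0553 for ITGA5 and 0.0653 for ITGA6). The causes were not tested.

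With 1 library left out, the members called ranged from 7 to 9 for the Rego effect in SNU449, 4 to 10 in SNU449-Axl-, 2 to 5 for the Axl effect in control, 0 to 4 in Rego-resistant cells and 3 to 6 for the difference between backgrounds. All genes called ranged from 740 to 1299, 205 to 891, 540 to 1275, 219 to 826 and 523 to 922. The lowest counts of all genes came without replicate 2 of the SNU449 control cells for the Rego effect in SNU449, without replicate 2 of the SNU449-Axl- control cells for the Axl effect in control cells, and without replicate 2 of the SNU449-Axl- Rego-resistant cells for the other comparisons. In SNU449-Axl- cells the Rego effect on ITGB3 was not called without replicate 3 of its control or replicate 2 of its resistant cells, that on LAMA5 without any of its controls or replicates 1 or 2 of its resistant cells, and that on ITGA10 without replicates 2 or 3 of either group. That on ITGA3 was lost without replicate 2 of either SNU449 group, replicates 2 or 3 of the SNU449-Axl- control or any SNU449-Axl- resistant library. That on ITGA6 was lost without replicate 2 of the SNU449 control, replicates 1 or 2 of the SNU449 resistant, replicates 1 or 2 of the SNU449-Axl- control or any SNU449-Axl- resistant library. For the Axl effect, ITGB2 in control cells was lost without replicate 3 of the SNU449-Axl- control cells. In resistant cells ITGA5 was lost without replicate 1 of either group or replicate 2 of the SNU449-Axl- cells, and ITGA11 without replicates 1 or 3 of the SNU449 or any of the SNU449-Axl- libraries. The unknown depth per library sets no interval here, and values near the lowest level do not resolve weak genes.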
